A study of Mus musculus with 6 samples.

Results

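The genes described here encode the mitochondrial protein import machinery, chosen by symbol from a table of 22063 mouse genes: all Timm genes, all Tomm genes with a number, and Samm50, Mtx1, Mtx2, Pam16, Dnajc19, Grpel1, Grpel2, Hspa9, Pmpca, Pmpcb and Chchd4. That rule found 37 genes, of which 12 belong to the outer membrane, 8 to the intermembrane space, 10 to the inner membrane and 5 to the matrix. The other two carry the family's names but act outside the translocases: Tomm34, a cytosolic co-chaperone, and Timmdc1, an assembly factor of respiratory complex I. They were measured by RNA sequencing in 6 samples of macrophages, 3 called CAR-Ms and 3 called CAR-Trem2-Ms. All cells were cultured for 7 days in DMEM with M-CSF, the growth factor that supports macrophages, at 20 ng/mL, and were given a lentivirus to make them express a chimeric antigen receptor, a synthetic receptor against a chosen target. The CAR-Ms are labelled as wild type. The CAR-Trem2-Ms carry the genotype label TERM2+, spelled so there, and their labels add VD3 at 1 µM for 24 h and sorting by flow cytometry. The treatment protocol attached to every sample names VD3 too, so the labels do not settle whether CAR-Ms received it, and genotype, sorting and possibly VD3 cannot be told apart. No source used here gives the promoter of the construct, the number of animals or whether the samples of a group are separate cultures. The p-values therefore speak to the variation among these 6 libraries, part or all of which may be technical.

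Most mitochondrial proteins are made in the cytosol and enter through the TOM complex, in which Tomm20 and Tomm70a (TOM70) are receptors, Tomm22 is a receptor and organiser, and Tomm40 is the channel. From there proteins part ways: the SAM complex inserts barrel proteins into the outer membrane, small TIM chaperones and the Chchd4 (MIA40) oxidation route serve the intermembrane space, TIM22 inserts carriers into the inner membrane, and TIM23 passes proteins with a presequence inwards. A motor around the chaperone Hspa9 (mortalin) pulls them into the matrix, where the peptidase formed by Pmpca and Pmpcb removes the presequence. Macrophages, like other cells, depend on this route for their respiratory enzymes and mitochondrial carriers.

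The sequences upstream of 3 of the genes are shown because these genes moved most by counts within their membranes: Tomm70a had the largest fall in the outer membrane and Timm23 in the inner membrane, and Tomm20 had, with Tomm6, the largest rise in the outer membrane. Tomm20 (log2 0.56 ± 0.04) and Tomm6 (0.56 ± 0.07) differed by less than their SE, and without CAR-Ms sample 1 Tomm6 led, at 0.62 against 0.55. Each holds the 250 bases before the start of the RefSeq transcript (build GRCm38.p6), 5′ to 3′ on the gene's strand. Capitals mark the letters CGGAAGT of ETS factors, to which GABP belongs, or the NRF1 consensus of 10 bases with its middle base left free, on either strand. ETS and NRF1 sites are known from many promoters of genes for mitochondrial proteins.
Tomm70a, chr16:57121464-57121713, plus strand: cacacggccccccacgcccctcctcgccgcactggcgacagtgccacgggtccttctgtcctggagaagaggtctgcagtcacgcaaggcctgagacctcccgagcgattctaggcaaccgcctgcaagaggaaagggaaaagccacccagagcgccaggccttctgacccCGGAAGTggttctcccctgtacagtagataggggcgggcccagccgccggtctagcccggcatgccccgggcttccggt
Tomm20, chr8:126945922-126946171, minus strand: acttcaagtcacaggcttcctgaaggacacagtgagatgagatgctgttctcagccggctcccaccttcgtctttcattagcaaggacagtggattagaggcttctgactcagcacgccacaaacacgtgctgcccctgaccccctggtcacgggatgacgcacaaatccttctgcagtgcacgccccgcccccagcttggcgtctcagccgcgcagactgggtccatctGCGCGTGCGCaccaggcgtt
Timm23, chr14:32201892-32202141, minus strand: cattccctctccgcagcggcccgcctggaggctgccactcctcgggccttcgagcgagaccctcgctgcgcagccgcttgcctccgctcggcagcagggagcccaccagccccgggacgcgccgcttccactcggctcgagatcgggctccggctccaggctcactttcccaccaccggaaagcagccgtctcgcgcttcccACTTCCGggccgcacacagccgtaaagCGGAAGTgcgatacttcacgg
The ETS letters began 79 bases before the start of Tomm70a and 48 and 21 bases before that of Timm23, and the NRF1 letters 20 bases before that of Tomm20. For Tomm20 the GENCODE gene, whose coordinates are given with its values, starts further downstream than the RefSeq transcript used here. Over windows of 300 bases that also take in the first 50 transcribed bases, 32 of the 37 genes had a RefSeq window that was used. The ETS letters stood in 11 of the 32 windows, against 6.42% of all 32851 mouse windows and 16.3% of the 9054 windows of tested genes. The NRF1 letters stood in 4 of the 32 (Chchd4, Pam16, Timm8b and Tomm20), against 4.60% of all windows and 12.3% of those of tested genes. Among import genes with a window, the ETS letters occurred in 7 of 16 that fell and 1 of 8 that rose between the groups, against 17.1% and 15.5% of all tested genes that fell and rose. The NRF1 letters occurred in 1 of 16 that fell and 2 of 8 that rose, against 14.2% and 11.0%. The letters searched were chosen after the sequences were seen, and a match is a description of the letters only.

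Sequencing depth was 14.2 to 15.91 (in 1e6 counts) for CAR-Ms against 9.8 to 12.56 for CAR-Trem2-Ms, and 11402 genes had enough reads to be tested. Trem2 itself rose from 76.6 to 191 CPM, where CPM is counts per 1e6 with TMM scaling factors, and its groups did not overlap. The summed level of 8 macrophage markers was 3298 to 3314 CPM in CAR-Ms against 3436 to 3450 in CAR-Trem2-Ms, with Mrc1 at 0.27 and 0.23 CPM. Within that sum 5 of 7 tested markers were called higher and 2 lower: Csf1r fell from 1264 to 862 CPM, while Lyz2 rose from 1315 to 1776 and Fcgr1 from 35.8 to 132. The labelled tissue is skin, and of 4 keratinocyte markers Krt1, Krt5 and Krt10 had no read and the sum was at most 0.06 CPM. Summed levels of other cell types were low but moved with the groups: 6 neutrophil markers stood at 17.9 to 34.2 CPM in CAR-Ms against 2.39 to 5.31 in CAR-Trem2-Ms, 3 B cell markers stood at 7.60 to 11.8 against 2.59 to 3.51, 5 T cell markers at 0.74 to 1.27 against 3.76 to 8.71, 3 endothelial markers at 3.10 to 4.18 against 0.60 to 2.02, and 6 fibroblast markers at 1.71 to 2.76 against 3.18 to 4.18. The 4 dendritic cell markers overlapped at 1.35 to 1.87 and 1.70 to 3.59. Of 3 mast cell markers, Cpa3 and Tpsb2 had no read. The share of reads from genes encoded in the mitochondrial genome was 4.60% to 4.70% in CAR-Ms against 13.4% to 13.8% in CAR-Trem2-Ms. The part of these shifts in the results below was not tested. In bulk RNA, fewer cells of a type and less RNA per cell cannot be told apart.

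Across the import machinery, transcripts for the receptor Tomm70a, the inner channel Timm23, the motor chaperone Hspa9 and the peptidase subunit Pmpca were lower in CAR-Trem2-Ms, while the receptor Tomm20 and the small chaperones Timm8b and Timm10b were higher by counts. Of 35 tested genes, 28 were called changed by edgeR's quasi-likelihood test at a Benjamini-Hochberg adjusted p under 0.05, 10 higher and 18 lower, and 7 did not pass. The same test called 81.1% of all genes, 40.9% higher and 40.1% lower, so the share called was near the background. The median log2 fold change, CAR-Trem2-Ms over CAR-Ms, was -0.20 for the 35 genes and 0.03 for all genes. By counts 4 changed by at least 2-fold, against 33.0% of all genes: Tomm70a and Timm23 fell, Timm8b and Timm10b rose. Genes with a fall of that size made up 14.3% of all genes and genes with such a rise 18.7%. On the TPM scale described next, 15 of the 35 changed by at least 2-fold, against 39.8% of all genes. CPM did not overlap between the groups for 28 of the 35 genes, against 81.8% of all genes. The untested genes were Tomm20l, a relative of Tomm20 with no read in any sample, which allows up to 3 counts per group, and Timm8a2, with 1 read over the CAR-Ms samples against 3 over the CAR-Trem2-Ms samples.

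**Figure D1:**
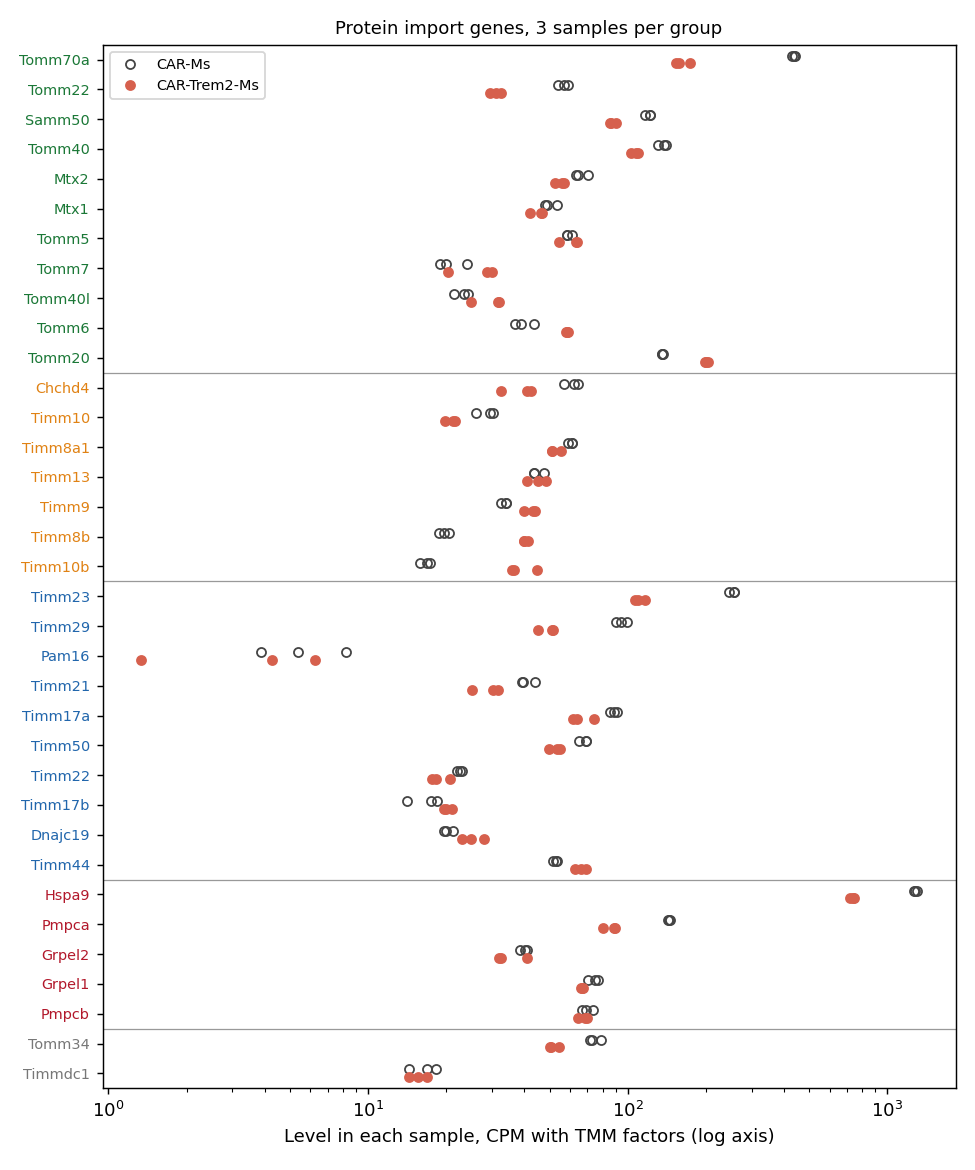
Level of each import gene in every sample, in CPM with TMM factors on a log axis, grouped by compartment, with 3 points per group. Hspa9 is the most abundant at 1283 CPM in CAR-Ms against 733 in CAR-Trem2-Ms, and the points of Tomm70a and Timm23 lie far apart between the groups.

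Whether an import gene was called higher depended on the scale. TPM, the authors' measure, divides by a length and sums to the same total in every sample. The length was not fixed for every gene. Timm17b had 5.8 TPM from 210 reads in CAR-Ms sample 1 and 17.65 TPM from 265 reads in sample 3. Timm17a had 11.92 TPM from 581 reads in CAR-Trem2-Ms sample 2 and 8.55 TPM from 747 reads in sample 3. The length correction used below took each gene's length from its counts over its TPM, averaged over samples. How far the uneven lengths enter the TPM results and that correction was not tested. TPM was lower for most of the 10824 genes that reached a TPM of 1 in 3 samples. On log2(TPM + 1) their median was -0.63, and limma called 81.6% of genes, 17.5% higher and 64.2% lower. On that scale 2 import genes rose, Timm8b and Timm10b, 32 fell, and Timm17b did not pass. All 18 genes that fell by counts fell on TPM, and of the 10 that rose, Timm8b and Timm10b kept their call and the other 8 had negative values. Relative to the median of all genes, the same 10 lay above and the same 18 below on both scales (17 of the 18 with a pseudocount of 0.1). The median of the 35 genes lay below that of all genes by a similar amount on each, at -0.23 by counts and -0.25 on TPM. Other scalings of the counts moved the split, with a median of all genes at 0.26 for upper quartile factors and -0.10 for total counts. With upper quartile factors 13 import genes were called higher and 13 lower by edgeR, against 50.1% and 31.6% of all genes (81.7% in either direction). With total counts 6 were higher and 21 lower, against 36.4% and 44.7%, and with the trend of fold change on gene length removed 4 were higher and 23 lower, against 40.3% and 39.4% (79.7% in either direction). After that length correction 6 of the 10 lay above the median of all genes and 16 of the 18 below it. The authors' deposited fold changes are of mean TPM, but their p-values did not follow these fold changes for every import gene. Tomm5 at -0.68 had p = 0.99 in the authors' test, and Timm13 at -0.76 had p = 0.71. By counts these genes were at 0.03 and 0.00. Tomm6 at -0.19 had p = 1.3e-11 in the authors' test, and was at 0.56 by counts. With direction from the deposited fold changes, 2 of the 37 genes were higher and 26 lower at a false discovery rate under 0.05. The same rule gave 13.8% and 28.6% of all genes. The 26 include Tomm20, Tomm6, Timm44, Timm9, Tomm40l, Dnajc19 and Tomm7, which rose by counts, so this split is not a test of a fall in TPM.

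**Figure D2:**
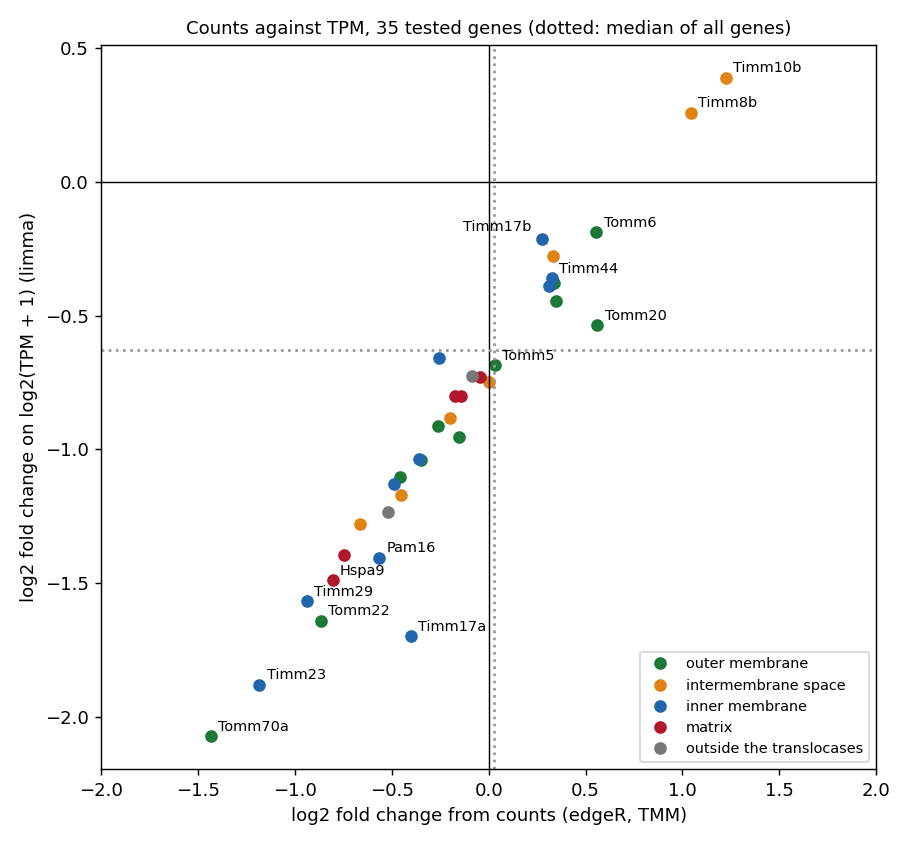
Log2 fold change of each tested import gene from counts (horizontal) and on log2(TPM + 1) (vertical), CAR-Trem2-Ms over CAR-Ms, coloured by compartment, with dotted lines at the median of all genes. Timm8b and Timm10b alone are above 0 on both scales, and Timm17a lies below the band of the other genes, at -0.40 by counts and -1.70 on TPM.

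In the outer membrane the import receptors moved apart. Tomm70a (ENSMUSG00000022752, GRCm38 chr16:57121703-57156705), the receptor for carriers and other proteins without a presequence, stood at 439, 440 and 429 CPM in CAR-Ms against 154, 174 and 157 in CAR-Trem2-Ms. Every CAR-Trem2-Ms sample lay far below every CAR-Ms sample, a fall of 1.43 ± 0.04 (SE, n = 3 per group) on the log2 scale, by edgeR's quasi-likelihood test with a Benjamini-Hochberg adjusted p of 6.8e-24. With the length trend removed the fall was 0.89. Among the 37 genes it went from rank 8 by TPM to rank 22 in CAR-Trem2-Ms. Tomm20 (ENSMUSG00000093904, chr8:126930667-126945844), the receptor for presequences, had 136, 136 and 137 CPM in CAR-Ms against 198, 205 and 201 in CAR-Trem2-Ms. The groups did not overlap and the log2 fold change was 0.56 ± 0.04 (edgeR adjusted p = 5.3e-14). By TPM the order was the other way: 110, 96.7 and 97.2 in CAR-Ms against 68.9, 71.5 and 67.9 in CAR-Trem2-Ms, a fall of 0.54 on log2(TPM + 1) that is smaller than the median fall of all genes. Tomm22 (ENSMUSG00000022427, chr15:79670861-79673400), which joins receptors and channel, had 58.8, 54.0 and 56.8 CPM against 31.2, 32.5 and 29.4. All its CAR-Trem2-Ms values were lower, by 0.87 ± 0.08 on the log2 scale (edgeR adjusted p = 2.6e-11).

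The channel fell less than Tomm70a or Tomm22, and 2 of its 3 small subunits rose by counts. Tomm40 (ENSMUSG00000002984, chr7:19701313-19715438), the pore itself, had 131, 138 and 141 CPM in CAR-Ms against 103, 108 and 109 in CAR-Trem2-Ms, and fell by 0.35 ± 0.05 on the log2 scale (edgeR adjusted p = 5.7e-08), or by 0.12 with upper quartile factors. Its relative Tomm40l had 21.5, 23.5 and 24.2 CPM against 24.9, 31.7 and 31.8, higher in every CAR-Trem2-Ms sample, with a log2 fold change of 0.35 ± 0.11 (edgeR adjusted p = 0.0040), turning to -0.44 on TPM and not passing with total counts, at 0.22. Exons of Nr1i3 on the other strand overlap 64.3% of the Tomm40l exon bases, but Nr1i3 itself had at most 2 reads on average. Of the small subunits that steady the complex, Tomm6 rose by 0.56 ± 0.07 and Tomm7 by 0.34 ± 0.13 on the log2 scale by counts, with -0.19 and -0.38 on TPM, and Tomm5 was at 0.03 ± 0.07 and did not pass. With the length trend removed neither Tomm6 (-0.10) nor Tomm7 (-0.066) passed, and with total counts Tomm7 did not, at 0.21. The groups of Tomm7 overlapped, at 18.9 to 24.0 and 20.3 to 30.0 CPM. Its adjusted p of 0.015 in edgeR was lost without CAR-Ms sample 2 (0.069) or 3 (0.096) or CAR-Trem2-Ms sample 1 (0.12) or 3 (0.079). Gm21981, on the same strand, covers 76.0% of the Tomm6 exon bases, so Tomm6 reads may be split between them.

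The SAM complex, which builds barrel proteins such as Tomm40 into the outer membrane, was lower by counts in 2 of the 3 genes grouped under it here. Its core Samm50 (ENSMUSG00000022437, chr15:84192241-84217267) had 122, 116 and 122 CPM in CAR-Ms against 90.5, 86.4 and 85.6 in CAR-Trem2-Ms. The groups were well apart, with a fall of 0.46 ± 0.05 on the log2 scale (edgeR adjusted p = 1.1e-09), but with the length trend removed the value was -0.04 and did not pass (edgeR adjusted p = 0.44). Mtx2, a metaxin of the same complex, had 64.4, 70.4 and 63.0 CPM against 52.3, 55.9 and 56.8, lower in every CAR-Trem2-Ms sample, and fell by 0.26 ± 0.07 (edgeR adjusted p = 0.00065), a call lost with upper quartile factors, at -0.03 (edgeR adjusted p = 0.67). Its partner Mtx1 had 53.2, 48.7 and 48.2 CPM against 41.9, 46.5 and 46.8. The groups of Mtx1 did not overlap, but its log2 fold change of -0.15 ± 0.07 did not pass (edgeR adjusted p = 0.059). It passed without CAR-Trem2-Ms sample 2 (0.044) or 3 (0.040). Another metaxin, Mtx3, was outside the symbol rule and counted in another list. It was called higher by counts, at 0.38 ± 0.11 (edgeR adjusted p = 0.0036), with -0.12 on log2(TPM + 1). Over the 11 tested outer membrane genes, 4 were higher, 5 lower and 2 did not pass by counts, and the median was -0.15, while on TPM all 11 fell. The 8 TOM genes counted 4 higher and 3 lower around a median of 0.18, and the 3 SAM genes 2 lower around -0.26.

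**Figure D3:**
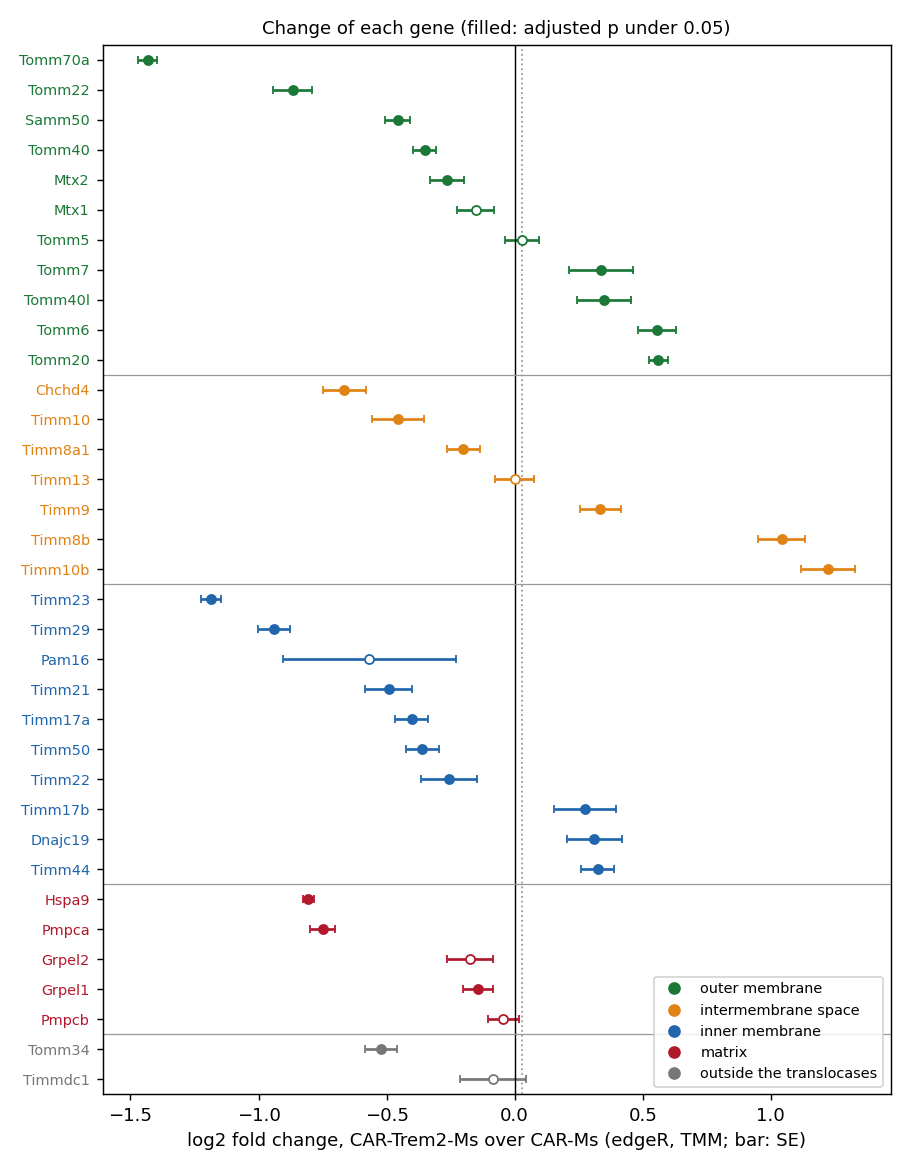
Log2 fold change of each tested import gene from counts, CAR-Trem2-Ms over CAR-Ms, with its SE as a bar, grouped by compartment. Filled points passed an adjusted p under 0.05. Tomm70a at -1.43 and Timm10b at 1.22 mark the ends of the range.

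In the intermembrane space the small TIM chaperones, which escort hydrophobic proteins between the membranes, moved in both directions. Timm10b (ENSMUSG00000089847, chr7:105640056-105643637) had 16.9, 17.3 and 15.9 CPM in CAR-Ms against 36.4, 35.7 and 44.6 in CAR-Trem2-Ms. Each CAR-Trem2-Ms value exceeded every CAR-Ms value, with a 2.33-fold rise (log2 1.22 ± 0.10, edgeR adjusted p = 1.6e-11). Timm8b (ENSMUSG00000039016, chr9:50603910-50605320) had 20.5, 18.7 and 19.6 CPM against 40.0, 41.2 and 39.9. Again every CAR-Trem2-Ms value was the higher, with a 2.06-fold rise (log2 1.04 ± 0.09, edgeR adjusted p = 2.8e-11). With the length trend removed, Timm8b was at 0.13 and did not pass (edgeR adjusted p = 0.20), while Timm10b was at 0.59 and passed. Both genes share exon bases with neighbours, and no source used here says whether counting used strand. Timm10b overlaps Arfip2 on the other strand by 277 bases and Gm45799 on its own strand by 376, where Arfip2 went from 50.2 to 85.2 CPM on average and Gm45799 from 0.59 to 6.74. Timm8b overlaps Nkapd1 on the other strand by 81 bases, and Nkapd1 went from 129 to 64.4 CPM.

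The other tested chaperones of this space changed by less than 2-fold by counts. Timm8a1, the X-linked partner of Timm13, had 61.1, 60.8 and 58.9 CPM against 51.2, 55.3 and 51.3, lower in every CAR-Trem2-Ms sample, and fell by 0.20 ± 0.06 on the log2 scale (edgeR adjusted p = 0.0065), against 0.033 with upper quartile factors. Timm13 itself was at 0.00 ± 0.08 and did not pass. Timm9 rose by 0.33 ± 0.08 and Timm10, which forms a ring with it, fell by 0.45 ± 0.10, from 28.5 to 20.8 CPM. On TPM Timm9 was at -0.28, Timm13 at -0.75 and Timm10 at -1.17, a fall of more than 2-fold. With the length trend removed Timm9 was called lower, at -0.24, and Timm10 was at -1.15. Chchd4 (ENSMUSG00000034203, chr6:91462172-91473546), the oxidoreductase that traps proteins by forming disulfides, had 56.6, 64.3 and 62.4 CPM in CAR-Ms against 41.0, 42.4 and 32.6 in CAR-Trem2-Ms. Its groups did not overlap, with a fall of 0.67 ± 0.08 (edgeR adjusted p = 3.0e-08). Of the 7 tested genes of this compartment 3 were higher and 3 lower, 1 did not pass, and the median was 0.00, while on TPM 2 were higher and 5 lower.

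In the inner membrane, Timm23 (ENSMUSG00000013701, chr14:32180162-32201898), the core of the presequence translocase, fell the most. It had 256, 257 and 245 CPM in CAR-Ms against 109, 107 and 117 in CAR-Trem2-Ms. The groups lay more than 2-fold apart, with a fall of 1.18 ± 0.04 on the log2 scale (edgeR adjusted p = 7.8e-21). By TPM it went from 452 ± 9.14 to 122 ± 6.89 (SD, n = 3), from rank 2 of the 37 genes to rank 5. Of its partners, the presequence receptor Timm50 fell by 0.36 ± 0.06, though with upper quartile factors it did not pass at -0.13 (edgeR adjusted p = 0.069). Timm21, which links TIM23 to the outer membrane and the respiratory chain, had 39.0, 44.0 and 39.7 CPM against 30.2, 25.2 and 31.6, a fall of 0.49 ± 0.09. Both genes had lower values in every CAR-Trem2-Ms sample. The alternative subunits Timm17a and Timm17b went apart by counts. Timm17a (chr1:135295213-135313778) had 91.0, 85.4 and 88.6 CPM against 74.3, 61.7 and 63.8, and fell by 0.40 ± 0.06 (edgeR adjusted p = 1.4e-06). With the length trend removed Timm17a turned to 0.050 and did not pass (edgeR adjusted p = 0.47), but its length was not fixed between samples. Timm17b (chrX:7899357-7908351) had 14.2, 18.5 and 17.5 CPM against 20.0, 19.6 and 21.1, a log2 fold change of 0.27 ± 0.12 (edgeR adjusted p = 0.040). Its groups were close and the call was lost without CAR-Ms sample 1, where the value was 0.16 (edgeR adjusted p = 0.26), without CAR-Ms sample 3 (0.062), or without CAR-Trem2-Ms sample 1 (0.058) or 3 (0.10). RLE factors, total counts, no low count filter and DESeq2 each lost it too.

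The carrier translocase TIM22 was lower by counts in the 2 genes grouped under it here. Its other subunits Timm10b (log2 1.22 ± 0.10) and Agk (-0.01 ± 0.10, not passed) were counted in other lists. Timm22 (ENSMUSG00000020843, chr11:76406952-76416292), its pore, had 22.9, 22.1 and 22.7 CPM in CAR-Ms against 20.7, 18.3 and 17.6 in CAR-Trem2-Ms. The groups did not overlap, with a fall of 0.26 ± 0.11 on the log2 scale (edgeR adjusted p = 0.035), but upper quartile factors gave -0.02 (edgeR adjusted p = 0.85). Without CAR-Ms sample 1 (0.077) or 3 (0.069), or CAR-Trem2-Ms sample 2 (0.073) or 3 (0.11), its adjusted p in edgeR missed the threshold. Timm29 (ENSMUSG00000048429, chr9:21592722-21595970), a subunit that helps TIM22 meet the TOM complex, had 93.9, 90.5 and 99.5 CPM against 51.7, 51.1 and 45.2. Its levels were well separated and fell by 0.94 ± 0.06 (edgeR adjusted p = 7.1e-14).

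The membrane-bound arms of the import motor rose by counts. Timm44, which tethers Hspa9 to the channel, went from 52.6 ± 0.82 to 66.0 ± 3.05 CPM (SD, n = 3), a log2 fold change of 0.32 ± 0.06, and Dnajc19, the J-protein that stimulates Hspa9, from 20.3 ± 0.80 to 25.2 ± 2.44 CPM, one of 0.31 ± 0.11. On TPM both were lower, at -0.36 and -0.39. With the length trend removed Timm44 did not pass, at 0.11 (edgeR adjusted p = 0.12), and Dnajc19 turned to -0.37 and was called lower, and with total counts Dnajc19 did not pass, at 0.19. Without CAR-Trem2-Ms sample 2 the call of Dnajc19 was lost (edgeR adjusted p = 0.057). Pam16, which restrains Dnajc19, had 5.39, 3.86 and 8.23 CPM against 1.34, 4.25 and 6.23, with overlapping groups, and did not pass at -0.57 ± 0.34 (edgeR adjusted p = 0.12). Pam16 was called lower on log2(TPM + 1), at -1.40 (limma adjusted p = 0.033). With the length trend removed it was also called lower, at -1.36 (edgeR adjusted p = 0.00060), as it was with replicate number as a block. Without CAR-Trem2-Ms sample 3 it passed at -1.11 (edgeR adjusted p = 0.010), and without CAR-Trem2-Ms sample 1 or CAR-Ms sample 3 its value was -0.14 or -0.24. Reads of Pam16 are uncertain because Pam16l is a near-identical copy outside the symbol rule. Pam16l went from 12.5 to 25.0 CPM, and both summed gave 16.1, 19.8 and 19.0 CPM in CAR-Ms against 24.2, 30.1 and 32.7 in CAR-Trem2-Ms, higher in every CAR-Trem2-Ms sample.

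In the matrix, Hspa9 (ENSMUSG00000024359, chromosome 18), the motor chaperone, was the most abundant of the 37 genes by TPM in both groups. It had 1266, 1299 and 1283 CPM in CAR-Ms against 736, 718 and 744 in CAR-Trem2-Ms, with narrow groups far apart. The fall was 0.81 ± 0.02 on the log2 scale (edgeR adjusted p = 2.3e-23). Its nucleotide exchange factor Grpel1 had 76.6, 70.1 and 74.8 CPM against 66.9, 67.2 and 66.2, lower in every CAR-Trem2-Ms sample, and fell by 0.14 ± 0.06 (edgeR adjusted p = 0.025), a call lost without CAR-Ms sample 1 (0.093) or 3 (0.064) and turned to 0.088 with upper quartile factors and 0.054 with the length trend removed. The second exchange factor Grpel2 had 38.4, 40.8 and 40.2 CPM against 41.0, 32.6 and 32.0, with CAR-Trem2-Ms sample 1 above all CAR-Ms samples. Grpel2 did not pass at -0.17 ± 0.09 (edgeR adjusted p = 0.077), and passed without that sample at -0.31 (edgeR adjusted p = 0.0028).

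The subunits of the processing peptidase differed. Pmpca (ENSMUSG00000026926, chr2:26389339-26397122), which binds the presequence, had 144, 145 and 145 CPM in CAR-Ms against 88.7, 89.3 and 80.2 in CAR-Trem2-Ms. The groups did not overlap, with a fall of 0.75 ± 0.05 (edgeR adjusted p = 2.0e-14). Inpp5e on the other strand overlaps 20.4% of its exon bases, and went from 23.6 to 30.5 CPM on average. Pmpcb, which holds the active site, had overlapping groups at 66.4 to 73.6 and 64.6 to 69.7 CPM and did not pass at -0.04 ± 0.06. Outside the translocases, Tomm34 had 72.6, 78.8 and 71.7 CPM against 50.8, 50.2 and 54.4, lower in every CAR-Trem2-Ms sample, and fell by 0.52 ± 0.06 (edgeR adjusted p = 2.2e-08), and Timmdc1 did not pass at -0.08 ± 0.13.

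The outer and inner membrane were then set side by side. The 10 inner membrane genes counted 3 higher, 6 lower and 1 not passed (median log2 fold change -0.38), against 4, 5 and 2 of 11 in the outer membrane (median -0.15). The shares called in both lists were near the 81.1% of all genes, of which 40.9% were higher and 40.1% lower. On TPM 9 of the 10 inner membrane genes fell and Timm17b did not pass at -0.21, against 64.2% of all genes called lower. Relative to the median of all genes the inner list was at -0.41 and the outer at -0.18 by counts, and at -0.45 and -0.28 on TPM. Summed over members, outer membrane transcripts went from 1144 ± 8.76 to 863 ± 17.2 CPM (SD, n = 3) and inner membrane transcripts from 662 ± 3.18 to 443 ± 4.16. The sum of outer over inner was 1.75, 1.72 and 1.71 in CAR-Ms against 1.92, 2.01 and 1.92 in CAR-Trem2-Ms, higher in every CAR-Trem2-Ms sample. Without Timm23 the ratio turned, from 2.80 ± 0.07 in the CAR-Ms to 2.60 ± 0.06 in CAR-Trem2-Ms, and without Tomm70a it went from 1.07 ± 0.01 to 1.58 ± 0.03. With both genes left out it rose from 1.73 ± 0.04 to 2.11 ± 0.03. Without Tomm70a the outer sum was 708 ± 5.68 and 701 ± 6.75 CPM, overlapping between the groups. By TPM, which allows levels of different genes to be added per length, the ratio went from 1.34 ± 0.04 to 1.87 ± 0.13. Without Timm23 the groups overlapped by TPM at 2.81 ± 0.17 and 2.90 ± 0.25, and without both genes at 2.53 ± 0.15 and 2.78 ± 0.25. Counts and sums over these lists carry no test, and a difference between the membranes was not tested.

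In 5 pairs of related genes the share of 1 member within the pair was followed by TPM, with a two-sided exact permutation test that cannot give a p below 0.1 for 3 against 3 samples. Timm8a1 made up 34.2%, 35.6% and 33.7% of Timm8a1 plus Timm8b in CAR-Ms against 18.9%, 19.5% and 18.9% in CAR-Trem2-Ms. Timm17a made up 88.5%, 80.7% and 69.3% of the Timm17 pair against 59.5%, 55.1% and 61.2%. Within CAR-Ms the TPM of Timm17b was uneven, at 5.8, 8.31 and 17.65, where its CPM was 14.2, 18.5 and 17.5. Tomm40 made up 89.9%, 88.9% and 92.4% of Tomm40 plus Tomm40l against 85.7%, 87.2% and 86.5%. In these 3 pairs the groups did not overlap, and each gave the smallest possible p (exact p = 0.1, 0.17 after Benjamini-Hochberg adjustment over 5 pairs). Grpel1 took 68.2% ± 1.66 of its pair in CAR-Ms against 68.7% ± 2.96 in CAR-Trem2-Ms (exact p = 0.8, adjusted 0.8), and Mtx1 74.0% ± 2.67 and 73.8% ± 1.56 of Mtx1 plus Mtx2 (exact p = 0.8, adjusted 0.8), both with overlapping groups. By counts, which do not allow for length, Timm8a1 fell from 75.5% to 56.6%, Timm17a from 84.1% to 76.6% and Tomm40 from 85.5% to 78.4%, each with the same exact p of 0.1.

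**Figure D4:**
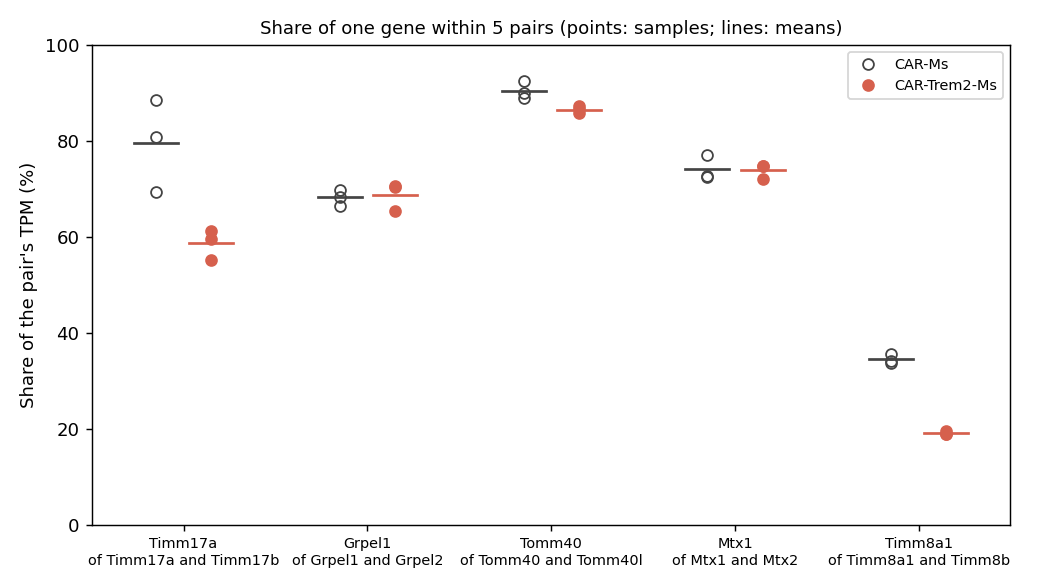
Share of the first-named gene in the TPM of each of 5 pairs, in percent, with a point per sample and a line at the mean of each group. The groups are apart for Timm8a1 (34.5% and 19.1%), Timm17a (79.5% and 58.6%) and Tomm40 (90.4% and 86.5%), and overlap for Grpel1 and Mtx1.

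Genes that act beside the import route were called in both directions, as were all tested genes, of which edgeR called 81.1%, 40.9% higher and 40.1% lower. Of 9 insertion and redox partners, 5 were higher and 2 lower (median 0.23), led by Romo1, a small inner membrane protein, at 1.16, Aifm1, which anchors Chchd4, at -0.63, and Mtch1, an outer membrane insertase relative, at 0.55. Of 10 genes for presequence trimming and folding, 4 were higher and 5 lower: the chaperonin Hspd1, which folds imported proteins, fell from 1285 ± 21.6 to 619 ± 18.3 CPM, the peptidase Xpnpep3 was at -1.60 and the iron-sulfur co-chaperone Hscb at 1.43. Of 8 genes for MICOS, the complex that shapes cristae and contacts SAM, 3 were higher and 4 lower, with Apoo at -1.83, Micos13 at 1.14 and Chchd3 at -0.66. The 11 tested proteases and quality control genes had 6 higher and 4 lower, with the matrix protease Lonp1 rising from 168 ± 2.16 to 554 ± 6.04 CPM, Oma1 at 1.54 and Htra2 at 1.47. Of 11 regulators of mitochondrial biogenesis 4 were higher and 5 lower: Gabpa, the DNA-binding subunit of the ETS factor GABP, fell from 165 ± 1.43 to 58.4 ± 2.85 CPM, the stress-responsive factor Atf5 was at 1.70 and the mitochondrial RNA polymerase Polrmt at 1.65. Of 13 genes encoded in the mitochondrial genome 12 were higher and 1 lower, with mt-Co3 at 2.68, mt-Atp8 at 2.45 and mt-Atp6 at 2.42. On log2(TPM + 1) the higher and lower counts of the 6 lists in this order were 1 and 5, 1 and 8, 1 and 7, 3 and 6, 2 and 6, and 9 and 4, against 17.5% and 64.2% of all genes, and Mtch1 turned to -0.16.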

How the data were processed

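Per the labels' protocols, RNA came from a Trizol extraction and a SMARTER mRNA-Seq kit gave the libraries. The submitters' processing notes name mm10, StringTie 1.3.1, HISAT2, Bowtie2 2.2.8 and fastp 0.18.0; no source used here gives the counting tool, annotation or strand setting. Per the file headers, the authors deposited raw read counts and TPM for each sample. The same deposited table holds the authors' mean TPM per group (read here as a signal), a log2 fold change of those means, and p-values with their adjusted form.

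Counts were tested with edgeR 4.0.16 (quasi-likelihood, TMM factors, filterByExpr) in R 4.3.3, all 6 samples, group as the term, with Benjamini-Hochberg adjustment over 11402 genes. SE is the log2 fold change over the square root of its F statistic. TPM of at least 1 in 3 samples was tested as log2(TPM + 1) with limma 3.58.1, so its fold changes understate those of low genes. Scripts were tested on simulated data. Replicate pairs differed by more than sampling noise (chi-square per degree of freedom 2.19 to 3.34), so each counted once. Coordinates, exon overlaps and exon lengths are from GENCODE on GRCm38, while the length correction took length from counts over TPM.

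Values in every sample are given for the channel genes, the pairs and some called genes of each compartment. These are up to 3 per compartment with the largest change and at least 50 reads on average in the higher group. Each neighbouring list names up to 3 genes by the same limits. Agk is given besides as a subunit of TIM22, and Mtx3 as a metaxin. The members and lists were chosen with earlier results of these data known. Alternatives were RLE, upper quartile and total-count scaling, mitochondrially encoded genes left out, 2 other filters, DESeq2 1.42.0, limma-voom, log2(TPM + 0.1), a length correction, a replicate block, an adjusted p under 0.01, other list boundaries and leaving out each sample. Leaving out Timm23, Tomm70a or both and the TPM ratio were added after seeing the data. Protein sequences were not used here.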

Additional observations from a re-analysis of the deposited data

How the results depend on the processing

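The direction called for a gene depends on where the scaling puts 0, and depth limits Pam16, Timm8a2 and Tomm20l. The median of all genes was 0.03 with TMM, 0.26 with upper quartile factors, -0.10 with total counts and -0.63 on log2(TPM + 1). On log2(TPM + 1) and log2(TPM + 0.1), 1890 and 1881 of all genes were higher and 6946 and 6927 lower; on both, 2 import genes were higher and 32 lower, 0 outer and 0 inner membrane genes were higher, 11 outer ones were lower, and 17 genes of the neighbouring lists were higher and 36 lower. Total-count scaling left 6 import genes higher, 2 of them outer and 1 inner, and the length correction 4, 2 and 1. Leaving out mitochondrially encoded genes left 22 higher genes in the neighbouring lists, against 34 with them. This drop was fixed in advance, because the 12 higher mitochondrially encoded genes belong to those lists. All 28 import gene calls were kept.

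The outer membrane median was 0.08 with upper quartile factors, -0.28 with total counts, -0.91 and -0.94 on TPM, and 0.18 for TOM alone, in which 3 genes were lower. The inner membrane median was -0.40 with RLE, -0.15 with upper quartile factors, -0.51 with total counts, -0.42 without a filter, -0.41 with DESeq2, -1.08 and -1.12 on TPM, -0.55 after length correction, -0.36 with the matrix motor added, and -0.40 to -0.31 when samples were left out in turn. The outer to inner ratio rose by 0.22, by 0.12 with the matrix motor, 0.15 for TOM alone, 0.51 without Tomm70a and 0.54 by TPM, and changed by -0.20 without Timm23; the cause was not tested. The share of Mtx1 changed by 1.85 percentage points by counts and by -1.04 to 1.33 without single samples, and that of Grpel1 by -0.32 to 2.27.

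Single genes turned on log2(TPM + 1) and log2(TPM + 0.1): Tomm20 -0.54 and -0.54, Tomm6 -0.19 and -0.19, Timm44 -0.36 and -0.37, Timm9 -0.28 and -0.28, Tomm40l -0.44 and -0.47, Dnajc19 -0.39 and -0.39, Tomm7 -0.38 and -0.39, Timm17b -0.21 and -0.23, Timm13 -0.75 and -0.76, Tomm5 -0.68 and -0.69, and Mtch1 -0.16 and -0.17. After length correction Tomm6 was -0.10, Timm17a 0.050, Timm9 -0.24, Grpel1 0.054, Dnajc19 -0.37, Tomm7 -0.066, Timm13 -0.41 and Tomm5 -0.71. With upper quartile factors Timm8a1 was 0.033, Grpel1 0.088 and Pmpcb 0.19. Of the 28 import gene calls, DESeq2 kept 27, limma-voom 28, total counts 24, upper quartile factors 23 and the length correction 19.

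Whether replicate numbers mark pairs is not known. Deviations of same-numbered samples correlated at 0.035, -0.026 and 0.032, and not every sample correlated best with its own number. These values show no clear shared shift, but such a check cannot exclude pairing by culture or animal. With the replicate block 29 import genes were called, 10 higher and 19 lower, among them all 28, and 9188 genes in all.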

Other observations

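Longer genes tended to have lower fold changes: Spearman's rho between exon length and log2 fold change was -0.28 across 11382 tested genes and -0.20 across the 35 import genes, which share libraries and are not independent replicates. The exon length of the import genes that rose (median 3623 bases) was close to that of those that fell (3601.5), while over all genes the medians were 3695 and 5429.5 bases.

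The import genes together took 0.39% to 0.40% of a CAR-Ms library's reads and 0.25% of a CAR-Trem2-Ms library's. Their summed level fell from 3773 ± 23.8 to 2641 ± 6.02 CPM (SD, n = 3). The matrix sum without Hspa9 went from 328 ± 2.60 to 256 ± 8.74 CPM, and the intermembrane space sum from 265 ± 2.56 to 278 ± 2.79.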
